A study of Homo sapiens with 6 samples.

Results

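The genes examined here were the mitochondrial ribosomal protein genes of Hep-3B cells, a human hepatocellular carcinoma line. They were chosen by symbol, as protein-coding genes named MRPL or MRPS followed by a number. GENCODE 29 lists 78 such genes, and the deposited tables of 23406 features held 76 of them, 48 MRPL genes and 28 MRPS genes. MRPL45 and MRPS21 were not analysed here. All 76 passed the filter on low counts, which left 14071 features.

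RNA was sequenced from 3 libraries of cells that carried a control shRNA (shControl) and 3 libraries of cells that carried an shRNA against nucleoredoxin (shNXN), a thioredoxin-family protein. Both shRNAs were delivered by lentivirus and both groups went through puromycin selection, so the lentivirus and the puromycin were common to both groups. Each group was sampled on days 7, 9 and 11, with 1 library per group and day, and the 3 days served as the replicates of a group. The labels give no separate clones and do not say whether the days were separate cultures, so the p-values measure the spread between these libraries.

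Mitochondria translate their own few proteins, all of them subunits of the respiratory chain and ATP synthase, on a ribosome distinct from that of the cytosol. Its RNA is encoded in the mitochondrial genome, while its proteins are encoded in the nucleus, made in the cytosol and imported. MRPL genes encode proteins of the large subunit, which forms the peptide bond, and MRPS genes encode proteins of the small subunit, which reads the messenger RNA. The symbols are not a perfect guide, since the MRPS18A and MRPS30 proteins sit in the large subunit. Liver cells are rich in mitochondria.

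The base composition of the members differed widely, and the results below are ordered by it. The GC content of the longest GENCODE 29 transcript had a median of 51.1% over the MRPL members (33.5% to 71.9%) and 46.2% over the MRPS members (34.5% to 64.5%), against 48.4% over the 12740 tested features with a value. As an example, 120 bases from the middle of the coding sequence are shown for some of the 13 members called with the day block. They are the 2 poorest and the 2 richest in GC by the coding sequence, not by the longest transcript. G and C are in capitals and a and t in lower case. The sequences are from GENCODE 29 transcripts on the GRCh38 build, read 5′ to 3′ on the coding strand.
MRPL1: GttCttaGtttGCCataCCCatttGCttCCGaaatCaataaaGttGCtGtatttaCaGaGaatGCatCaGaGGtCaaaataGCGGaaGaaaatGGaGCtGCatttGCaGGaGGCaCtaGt
MRPS36: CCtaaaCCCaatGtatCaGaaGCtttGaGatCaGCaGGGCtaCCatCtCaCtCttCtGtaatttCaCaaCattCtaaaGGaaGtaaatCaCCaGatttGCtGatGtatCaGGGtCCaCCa
MRPL12: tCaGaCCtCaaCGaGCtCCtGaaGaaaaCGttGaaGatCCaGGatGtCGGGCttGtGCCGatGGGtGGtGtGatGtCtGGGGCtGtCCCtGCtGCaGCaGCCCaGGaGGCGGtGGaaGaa
MRPL4: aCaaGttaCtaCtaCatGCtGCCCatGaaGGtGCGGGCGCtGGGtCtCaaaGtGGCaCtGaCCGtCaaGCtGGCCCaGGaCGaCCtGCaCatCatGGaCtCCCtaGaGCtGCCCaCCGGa
G and C made up 49 of the 120 bases of MRPL1 and 50 of those of MRPS36, and 70 of those of MRPL12 and 71 of those of MRPL4. Over the whole coding sequence, the GC content was 38.4% in MRPL1, 41.4% in MRPS36, 60.8% in MRPL12 and 65.0% in MRPL4. The first pair was lower and the second pair higher in shNXN libraries.

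The libraries held between 15349382 and 16332589 counts. NXN itself, the targeted gene, stood at 181, 138 and 143 CPM (a count scaled to library size) in shControl on days 7, 9 and 11 and at 42.7, 47.5 and 39.5 CPM in shNXN. Its log2 fold change was -1.83 (SE 0.16, edgeR adjusted p = 0.0378), and an exact two-sided permutation test gave p = 0.1, the smallest that 3 against 3 libraries allow. Of the 10 hepatocyte and hepatoma markers, all 10 were tested, and their summed level was between 16267 and 25800 FPKM. The fibroblast markers summed to 2.3 to 4.39 FPKM and the endothelial markers to at most 0.02 FPKM. Among the leukocyte markers, which summed to between 129.96 and 291.15 FPKM, the defining markers PTPRC and CD3E were listed at 0 to 0.04 FPKM and the sum came from LYZ and CD68. CD68 was higher in all 3 shNXN libraries, and its part in the results below was not tested.

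The libraries differed in how far a feature's level depended on its GC content. For features of 35% GC, the fitted deviation from a feature's mean log2 CPM was 0.78, 0.32 and 1.09 in shControl on days 7, 9 and 11, and -0.88, -1.14 and -0.17 in shNXN. For features of 60% GC it was -0.15, -0.10 and -0.29 in shControl and 0.24, 0.28 and 0.02 in shNXN. On each day the shNXN library lay below the shControl library of that day at 35% GC and above it at 60% GC. Whether this slope arose in the cells or in library preparation cannot be told apart here, because the slopes went with the groups. Fewer transcripts per cell and fewer cells cannot be told apart in bulk RNA either.

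The mitoribosomal protein genes were expressed well above the typical tested feature. Mean levels over the 6 libraries had a median of 61.2 FPKM (fragments scaled by transcript length and depth, a level per length) for MRPL members and 50.1 FPKM for MRPS members, against 13.5 FPKM over all tested features. The most abundant large subunit transcripts by FPKM were MRPL11, MRPL34 and MRPL12, with means of 190, 175 and 164 FPKM. MRPL11 and MRPL12 belong to the L7/L12 stalk, the mobile arm that receives translation factors, and MRPL34 is one of the smallest mitoribosomal proteins. The most abundant small subunit transcripts were MRPS24 (264 FPKM), MRPS34 (156 FPKM) and MRPS26 (98.6 FPKM).

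At the other end stood MRPL30 (2.87 FPKM), MRPL1 (8.71 FPKM) and MRPL50 (9.55 FPKM), and for the small subunit MRPS31 (5.16 FPKM), MRPS36 (14.7 FPKM) and MRPS18C (18.4 FPKM). MRPL30 rested on few reads, with estimated counts of 3.48, 17.48 and 86.62 in shControl and 13.02, 21.27 and 12.33 in shNXN, none of them whole numbers. Its level is therefore uncertain. Neighbours in the order were often not separable: MRPL34 ranged from 155 to 225 FPKM over the 6 libraries and MRPL12 from 136 to 217 FPKM.

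**Figure D1:**
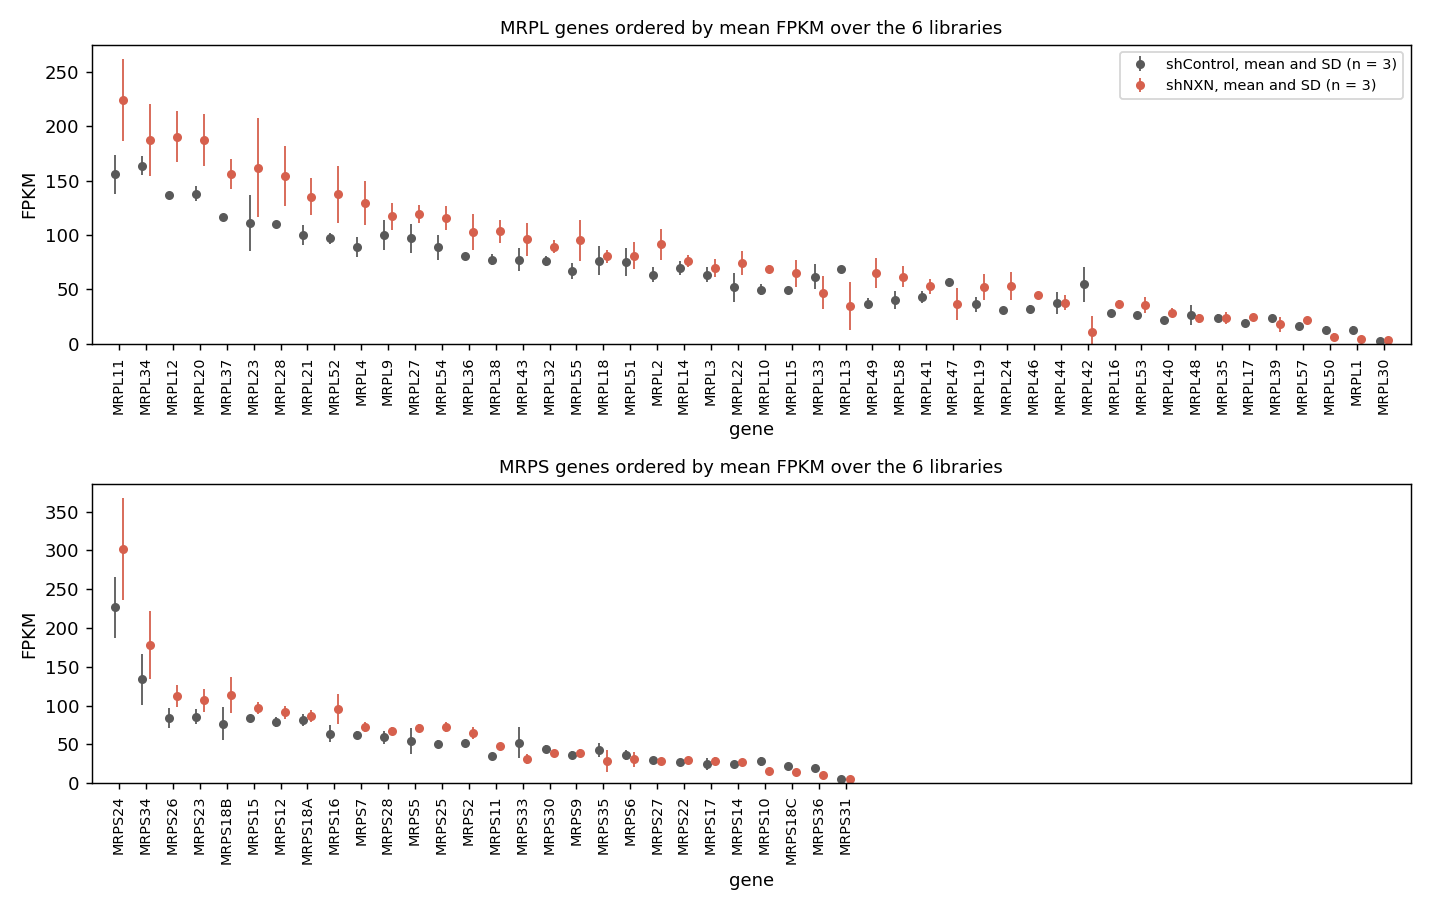
Level of each mitoribosomal protein gene in FPKM (linear axis), MRPL genes above and MRPS genes below, ordered by the mean over the 6 libraries; points are group means and bars are SD over 3 libraries. MRPL11 and MRPS24 lead their subunits and MRPL30 and MRPS31 close them, and the shNXN means lie above the shControl means for most abundant genes and below them for MRPL13, MRPL42, MRPS10 and MRPS36.

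Summed over the members, the level was higher in the shNXN libraries. The MRPL members summed to 3114, 3048 and 3117 FPKM in shControl on days 7, 9 and 11 and to 3658, 4287 and 3544 FPKM in shNXN. The MRPS members summed to 1580, 1668 and 1618 FPKM in shControl and to 1809, 2121 and 1801 FPKM in shNXN. Both sums were higher in every shNXN library than in any shControl library, and day 9 was the highest of the shNXN libraries. The FPKM of all tested features also lay higher in shNXN, with median log2(FPKM + 1) differences of 0.17, 0.12 and 0.05 on days 7, 9 and 11. The shNXN mean was 1.24 times the shControl mean for the MRPL sum and 1.18 times for the MRPS sum. In CPM these folds were 1.14 and 1.09, and the MRPS sums of the groups then overlapped (1467 to 1561 CPM in shControl and 1511 to 1749 CPM in shNXN). The ratio of the MRPL sum to the MRPS sum in FPKM was 1.97, 1.83 and 1.93 in shControl and 2.02, 2.02 and 1.97 in shNXN. The ranges of this ratio overlapped slightly, with 1.971 on day 7 of shControl and 1.967 on day 11 of shNXN. In CPM the ratio was 1.57, 1.56 and 1.49 in shControl and 1.61, 1.62 and 1.58 in shNXN, and there the groups did not overlap, by a narrow margin.

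The first comparison asked which members differed between shNXN and shControl cells, and it gave no call for a single member. By edgeR's quasi-likelihood F test, 0 of 76 members had an adjusted p under 0.05, where 3.39% of all tested features did. At an unadjusted p under 0.05 there were 27 members, 19 higher and 8 lower in shNXN (background 32.9%, with 11.6% higher and 21.3% lower). The median log2 fold change was 0.27 over the MRPL members and 0.14 over the MRPS members, against 0.03 over all tested features. Higher values were found for 35 of 48 MRPL members and 19 of 28 MRPS members, beside 7229 of all 14071 tested features. DESeq2 called 20 members, 14 higher and 6 lower (background 23.5%, with 6.74% higher and 16.8% lower), and limma on log2(FPKM + 1) called 0 members (background 2.04%).

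Because the libraries of a day shared deviations, day was also entered as a block, and this changed the calls. With the block, edgeR called 13 members, 7 higher and 6 lower in shNXN, against a background of 23.3% (6.28% higher and 17.0% lower). The higher members were MRPL2, MRPL4, MRPL11, MRPL12, MRPL24, MRPL28 and MRPL37. The lower members were MRPL1, MRPL19, MRPL42, MRPL50, MRPS10 and MRPS36. The members' share called was below that of all features, with the difference on the lower side, where 6 of 76 members were called. None of the 7 members called higher was an MRPS gene, although whether the subunits differed in this respect was not tested.

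The falls were the larger changes in size. MRPL42 (chr12:93467488-93516213), a large subunit protein with no bacterial counterpart, stood at 40.5, 43.1 and 67.2 CPM in shControl on days 7, 9 and 11 and at 4.56, 3.55 and 28.9 CPM in shNXN. The groups did not overlap, and the 2 earlier shNXN libraries were far lower than the day 11 library. With the block the log2 fold change was -2.60 (SE 0.51, edgeR adjusted p = 0.0286), and -2.03 without it (edgeR adjusted p = 0.128).

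MRPL50 (chr9:101387633-101398614), also without a bacterial counterpart, had the same shape. It stood at 30.3, 35.6 and 35.8 CPM in shControl and at 5.72, 3.98 and 19.1 CPM in shNXN. Its log2 fold change with the block was -2.12 (SE 0.46, edgeR adjusted p = 0.0339). MRPL1 (chr4:77862520-77952790), the counterpart of bacterial L1 in the L1 stalk near the exit site, stood at 18.2, 8.98 and 16.8 CPM in shControl and at 4.62, 3.92 and 7.8 CPM in shNXN. Its log2 fold change with the block was -1.42 (SE 0.24, edgeR adjusted p = 0.0232). Here too the groups were apart, by a narrow margin between day 9 of shControl and day 11 of shNXN.

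Among the small subunit genes, MRPS36 and MRPS10 were called lower. MRPS36 (chr5:69217760-69230129) stood at 16.7, 22.5 and 16.1 CPM in shControl and at 8.52, 10.2 and 8.31 CPM in shNXN. Its protein, also known as KGD4, was later assigned to the alpha-ketoglutarate dehydrogenase complex, so its place among ribosomal proteins is by symbol. The fall was alike on each day, with log2 differences of -0.96, -1.13 and -0.95, and the log2 fold change with the block was -1.02 (SE 0.16, edgeR adjusted p = 0.0204). Without the block its adjusted p was 0.0532 from edgeR. MRPS10 (chr6:42206801-42217865), the counterpart of bacterial S10 in the head of the small subunit, stood at 55.9, 40.5 and 60.2 CPM in shControl and at 22.5, 23.2 and 38.0 CPM in shNXN. The groups were apart by a narrow margin, and the log2 fold change with the block was -0.93 (SE 0.17, edgeR adjusted p = 0.0268).

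MRPL19 (chr2:75646783-75690851), a counterpart of bacterial L19 at the subunit interface, was called lower in counts only. Its CPM was 54.5, 38.3 and 73.3 in shControl and 25.5, 28.7 and 41.7 in shNXN, and the groups overlapped. The log2 fold change with the block was -0.77 (SE 0.17, edgeR adjusted p = 0.0353). Its FPKM was 35.9, 29.9 and 43.5 in shControl and 55.01, 62.0 and 39.0 in shNXN, so the deposited FPKM were higher in shNXN on days 7 and 9. On the log2(FPKM + 1) scale its fold change was 0.49, opposite to that of the counts. In all, 7 members had opposite signs in counts and in FPKM, 6 of them lower in counts and higher in FPKM.

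The rises were smaller, with log2 fold changes from 0.39 to 0.70 with the block. MRPL24 (chr1:156737303-156741590), the counterpart of an early assembly protein of the bacterial large subunit, stood at 17.8, 20.4 and 17.9 CPM in shControl and at 29.3, 37.2 and 25.5 CPM in shNXN. With the block the log2 fold change was 0.70 (SE 0.15, edgeR adjusted p = 0.033), and every shNXN library was above every shControl library. MRPL11 (chr11:66435075-66466738), at the base of the L7/L12 stalk, stood at 122, 112 and 106 CPM in shControl and at 160, 175 and 135 CPM in shNXN. Its log2 fold change with the block was 0.46 (SE 0.11, edgeR adjusted p = 0.0403).

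MRPL12 (chr17:81703357-81707526), the L7/L12 protein itself, stood at 105, 108 and 99.8 CPM in shControl and at 125, 158 and 138 CPM in shNXN. With the block the log2 fold change was 0.43 (SE 0.11, edgeR adjusted p = 0.0483). MRPL10, which anchors MRPL12 to the ribosome, stood at 56.5, 70.8 and 65.8 CPM in shControl and at 70.3, 77.0 and 86.4 CPM in shNXN. Here the groups overlapped and the member was not called by edgeR or DESeq2. The other members called higher were MRPL2 and MRPL4, counterparts of bacterial L2 and L4 in the core of the large subunit, MRPL28, and MRPL37, which has no bacterial counterpart. Their log2 fold changes with the block were 0.47, 0.51, 0.46 and 0.39, and in each of them every shNXN library was above every shControl library.

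Of the 13 called members, 6 overlap another protein-coding gene in GENCODE 29. MRPL12 and MRPL28 overlap one on the same strand and MRPL2, MRPL11, MRPL19 and MRPL37 one on the opposite strand. Whether the counting used strand is not given in the sources used here, so the reads of such pairs may not be told apart. MRPL2, MRPL4 and MRPL12 each had a count that was not whole in 1 library. What the decimals stand for is not given in the sources used here.

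**Figure D2:**
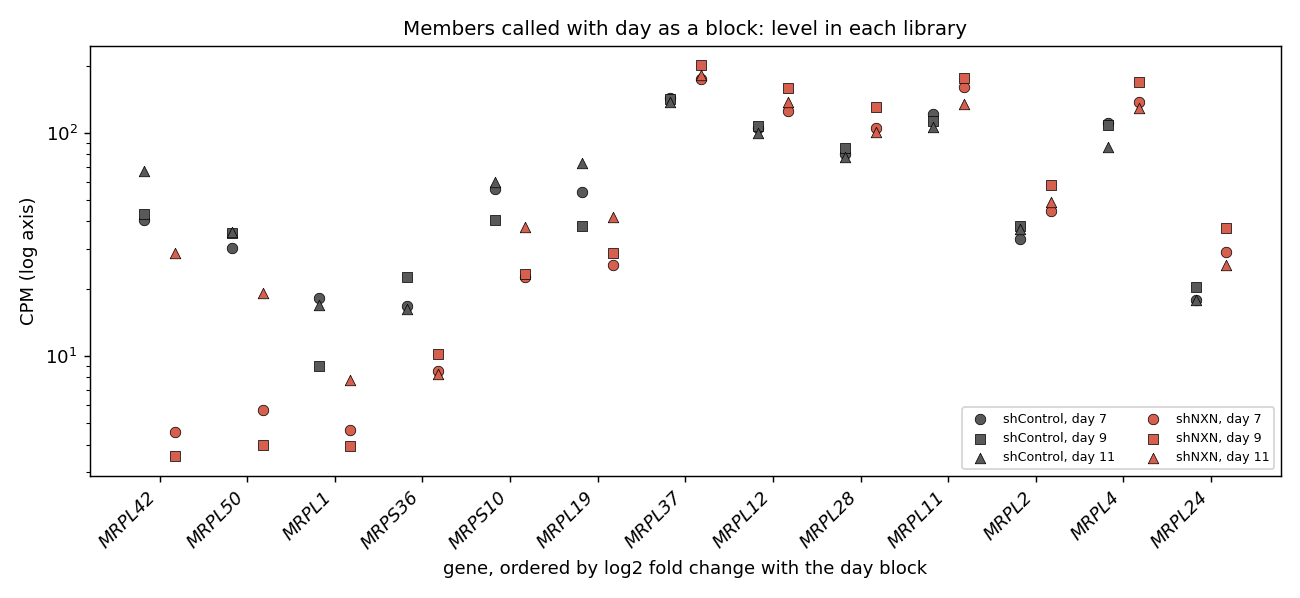
CPM (log axis) of the 13 members called by edgeR with day as a block, ordered by log2 fold change; each point is 1 library, grey for shControl and red for shNXN, with circles for day 7, squares for day 9 and triangles for day 11. The 6 lower members are spread over a wide range of falls, with the day 11 shNXN library of MRPL42 (28.9 CPM) and MRPL50 (19.1 CPM) well above the other shNXN libraries, and the 7 higher members rise by a like amount.

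The shNXN library of day 11 changed how many members were called without the block. When the shNXN library of day 11 was left out, edgeR called 19 members, 6 higher and 13 lower (background 25.8%, with 4.4% higher and 21.4% lower). Without both day 11 libraries it called 23 members, 9 higher and 14 lower (background 31.8%, with 7.99% higher and 23.8% lower). Each other library left out in turn gave 0 called members. Over all features, the number called with single libraries left out ran from 0 to 3706, so that count does not by itself set the members apart. Among the members called lower once day 11 was out was MRPL13, at 53.0, 52.0 and 51.1 CPM in shControl and 15.9, 14.8 and 43.6 CPM in shNXN. It is a counterpart of bacterial L13, and its adjusted p in the fit of all libraries was 0.13 from edgeR, 0.0556 from edgeR with the block and 0.0461 from DESeq2.

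By day, the median of the large subunit members lay above that of the small subunit members. The median log2 difference between shNXN and shControl for MRPL was 0.17 (day 7), 0.33 (day 9) and 0.25 (day 11), and for MRPS 0.01, 0.19 and 0.16. Over all tested features it was 0.0003, -0.005 and 0.07. Each day rested on 1 library per group, so a day has no error of its own. On all 3 days, 30 MRPL members were higher, 7 were lower and 11 changed sign. For MRPS these numbers were 12, 5 and 11. The like counts over all features are not given here, so these numbers only describe the members.

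The by-day medians differed with GC content. Among the 30 members under 45% GC, the median log2 difference from day 7 to day 11 was -0.55, -0.40 and -0.00. Among the 26 members between 45% and 55% GC it was 0.27, 0.47 and 0.26, and among the 20 members over 55% GC it was 0.17, 0.45 and 0.37. MRPS35, a small subunit protein of 41.1% GC with no bacterial counterpart, had differences of -1.36, -0.84 and -0.27, and its CPM on day 11 was 81.3 in shControl and 67.2 in shNXN.

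**Figure D3:**
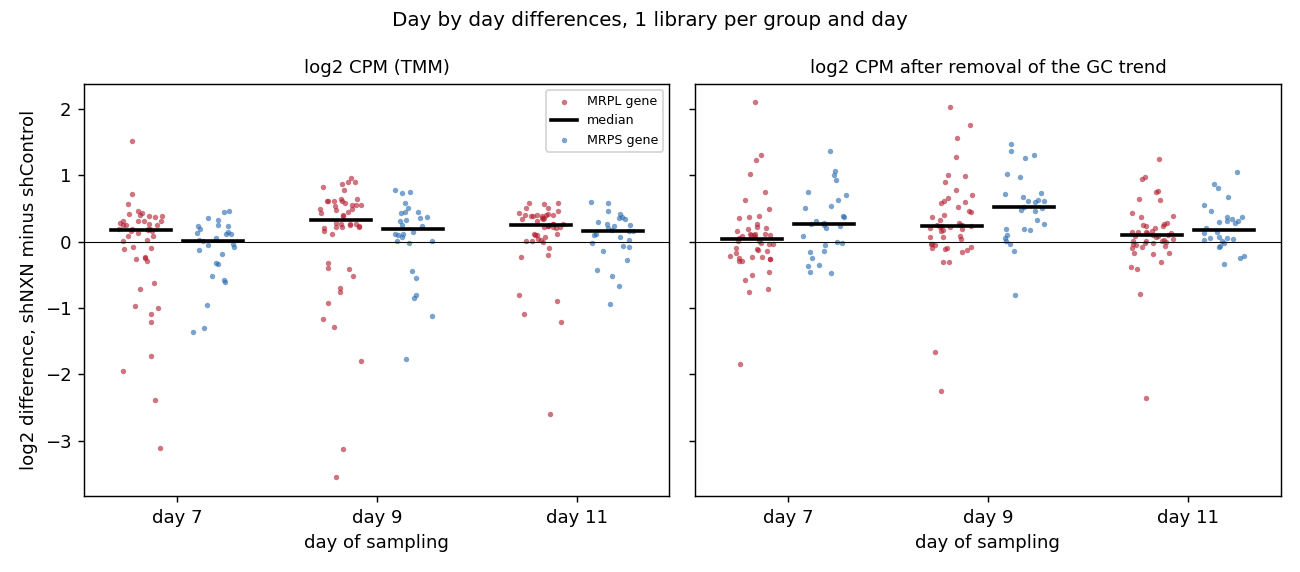
Log2 difference between the shNXN and the shControl library of each day for every member, on the left from TMM-normalized log2 CPM and on the right after removal of each library's GC trend; red points are MRPL genes, blue points MRPS genes and black bars medians. Without the correction the MRPL bars lie above the MRPS bars on each day (0.17 against 0.01 on day 7), and with it the MRPS bars lie above (0.26 against 0.03 on day 7).

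The second comparison took transcript GC content into account, and it changed the picture of the members. Across the 76 members the log2 fold change followed GC content, with Spearman's rho of 0.69 (0.64 over 48 MRPL and 0.74 over 28 MRPS members), beside 0.79 over all 12740 tested features with a GC value. These are descriptions across genes, which share libraries and are not replicates. All 20 members over 55% GC had a positive log2 fold change, and their median, 0.34, was close to the 0.35 of all features of that composition. Of the members called with the block, the 6 lower were all under 45% GC, and the 7 higher were all over 45% GC.

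The GC-poor members had less negative values than all features of that composition. Under 45% GC, the 30 members had a median log2 fold change of -0.33, and 36.7% of them were positive. All 4842 tested features of that composition had a median of -0.78, and 8.41% of them were positive. Between 45% and 55% GC, 88.5% of the 26 members and 62.8% of the 4035 features were positive, with medians of 0.34 and 0.12. The difference between the members and features of like composition was not tested.

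Set against the tested features within 2 percentage points of its own GC content, the median MRPL member was 0.11 higher on the log2 scale and the median MRPS member 0.28 higher. Of 48 MRPL members 32 were above their like features, and of 28 MRPS members 23 were. The subunits thus changed order when GC content was taken into account. With coding GC content in place of that of the longest transcript, the 2 medians were 0.11 and 0.11, and 34 MRPL members and 18 MRPS members were above.

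**Figure D4:**
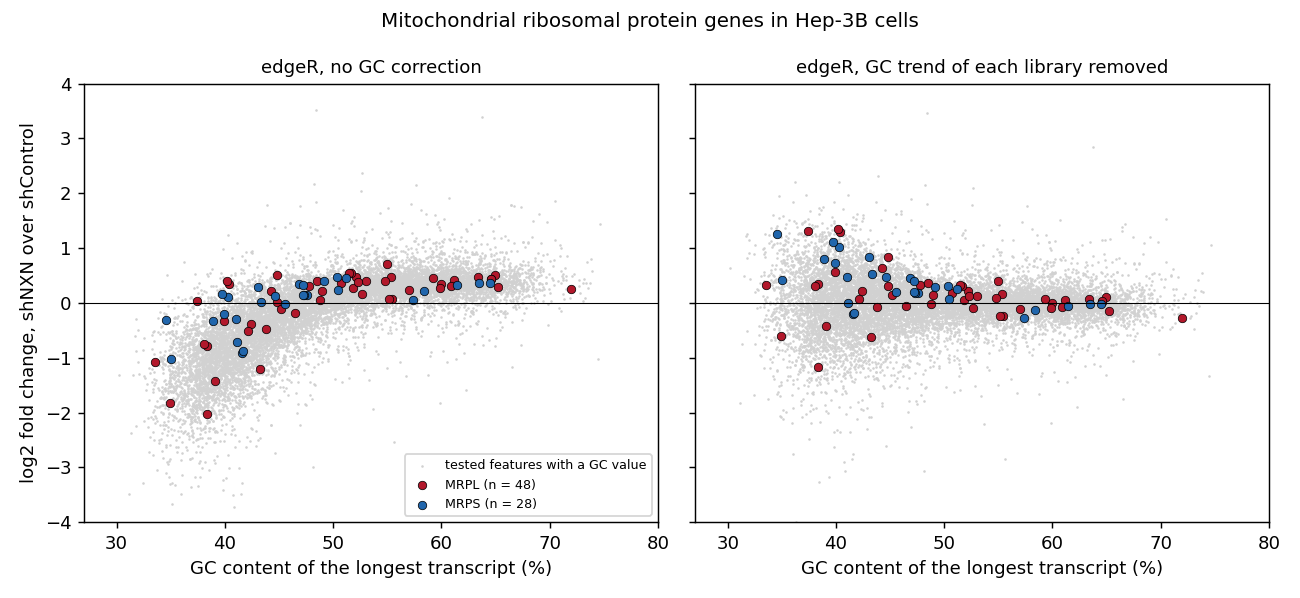
Log2 fold change of shNXN over shControl against the GC content of the longest transcript, from edgeR on the left and from edgeR with each library's GC trend removed on the right; grey points are the 12740 tested features with a GC value, red points MRPL genes and blue points MRPS genes. On the left the members under 45% GC run down to -2.03 while those over 55% GC are all above 0, and on the right most members under 45% GC lie above 0. The axis ends at 4 and leaves out 9 grey features on the left and 6 on the right.

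With each library's trend on the GC content of the longest transcript taken out through an offset, edgeR called 0 of 76 members (background 0.0392%). At an unadjusted p under 0.05 there were 18 members, all of them higher in shNXN (background 16.6%, with 8.74% higher). All of these but MRPL24, MRPL57 and MRPS16 were under 45% GC. Among the 4842 tested features under 45% GC, 844 were higher at that threshold in the same fit. The members' log2 fold change now ran against GC content, with Spearman's rho of -0.48, beside -0.03 over all features. It was -0.37 over MRPL and -0.66 over MRPS members. With coding GC in both the offset and the correlation, rho was -0.33 over the members and -0.02 over all features. With the longest transcript, the median log2 fold change was 0.093 for MRPL and 0.28 for MRPS members, against -0.00 for all features. The 13 members called with the block had corrected log2 fold changes from -1.16 (MRPL42) to 0.43 (MRPS36). The rises of MRPL12, MRPL28, MRPL4 and MRPL37 shrank to 0.017, 0.065, 0.10 and 0.12. MRPL24 kept the largest corrected rise of the 7, at 0.40 (edgeR adjusted p = 0.279). Which members had an unadjusted p under 0.05 depended on the definition of GC content. With coding GC in the offset, MRPL42 and MRPL50 were under it and lower, at -1.25 and -1.15 (edgeR unadjusted p = 0.0425 and 0.00996). MRPL32, MRPL46 and MRPS30 were then not under it (edgeR unadjusted p = 0.830, 0.0875 and 0.123). MRPS22, MRPS28 and MRPS31 stayed under it and higher.

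The direction turned in MRPL19 and MRPS36, whose corrected log2 fold changes were 0.35 and 0.43 (edgeR adjusted p = 0.414 and 0.694). With the mean GC over all transcripts of a gene in the offset, they stayed negative, at -0.18 and -0.40, and with coding GC they were -0.41 and 0.19, so the turn depended on the definition of GC content. For MRPL42 and MRPL50 it stayed negative, at -1.16 and -0.60 (edgeR adjusted p = 0.33 and 0.479). Their values were -0.80 and -0.25 with mean GC and -1.25 and -1.15 with coding GC, so their size depended on the definition. With the longest transcript, their corrected differences on day 11 were -0.41 and 0.37, against -2.25 and -1.66 on day 9.

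With both the block and the GC offset, 1 member was called, MRPL32, which was higher (background 0.424%, with 0.283% higher). MRPL32 is a large subunit protein whose maturation by a mitochondrial protease precedes ribosome assembly. It stood at 69.2, 62.4 and 68.3 CPM in shControl and at 65.2, 71.6 and 68.8 CPM in shNXN, so the groups overlapped and the uncorrected log2 fold change was 0.04. The correction moved it to 1.26 (edgeR adjusted p = 0.0485). Its longest transcript has 37.5% GC. Its coding sequence has 51.4% GC, and with coding GC in the offset, without the block, the log2 fold change was 0.03 (edgeR adjusted p = 0.951).

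The members with the next smallest p in that fit were MRPS30, MRPL46, MRPS22 and MRPS14, with corrected log2 fold changes of 1.22, 1.32, 1.001 and 0.74. Uncorrected values were -0.30, 0.40, 0.10 and -0.20. The coding sequences of MRPS30, MRPL46 and MRPS14 have 51.2%, 53.0% and 51.0% GC, while their longest transcripts have 34.5%, 40.2% and 39.9%. With coding GC in the offset, without the block, their log2 fold changes were -0.30, 0.29 and -0.19. MRPS22 differed, with 45.3% GC in the coding sequence and a log2 fold change of 0.75 (edgeR adjusted p = 0.123).

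The order of the subunits depended on the definition of GC content. The coding sequence was richer in GC than the longest transcript in 61 of 76 members, by a median of 2.82 percentage points in MRPL and 3.94 in MRPS members. The difference of the medians, MRPL minus MRPS, was 0.13 uncorrected, -0.18 with the longest transcript, -0.07 with the mean over all transcripts of a gene and 0.01 with the coding sequence. The last of these definitions was chosen after seeing the data. Counting MRPS18A and MRPS30 with the large subunit, where their proteins sit, gave 0.11 uncorrected. The medians of the members stayed above 0 in both subunits under each of these definitions.

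**Figure D5:**
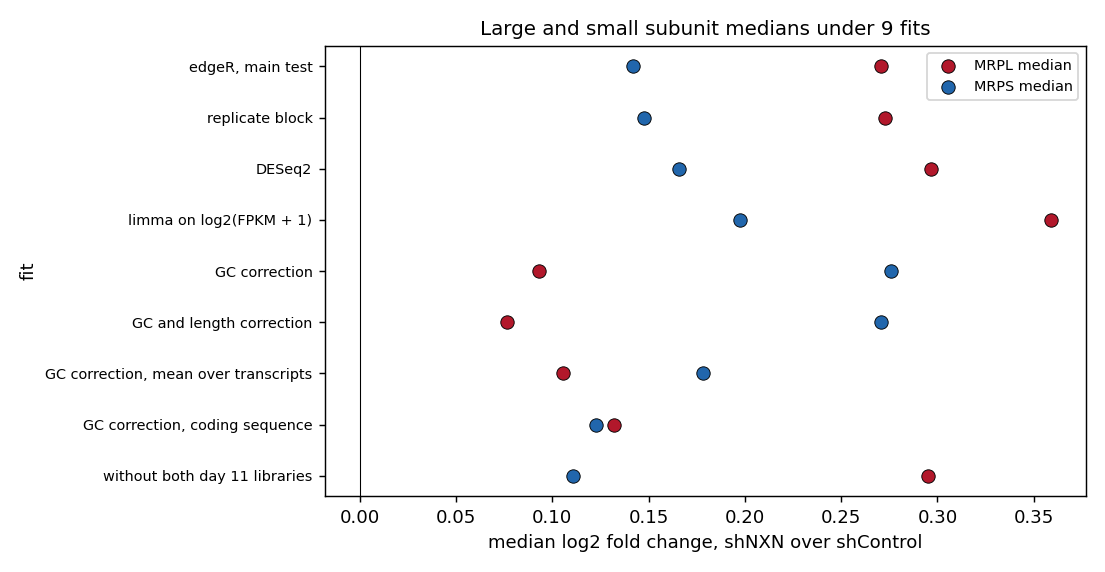
Median log2 fold change of the MRPL members (red) and the MRPS members (blue) under 9 fits, with the fit on the vertical axis. MRPL lies to the right of MRPS without GC correction (0.27 against 0.14), to the left with the longest transcript (0.09 against 0.28), and about level with coding GC (0.13 against 0.12).

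Members were also counted by whether the groups overlapped. In CPM, all 3 shNXN libraries were above all 3 shControl libraries for 22 MRPL and 6 MRPS members, 28 of 76 (background 19.0%), and below for 4 MRPL and 3 MRPS members, 7 of 76 (background 21.5%). After the GC offset, shNXN was above for 11 MRPL and 11 MRPS members, 22 of 76 (background 11.5%), and below for 2 of 76 (background 9.73%). The 2 below were MRPL34 and MRPS18A.

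The 3 MRPS18 genes encode related proteins, of which MRPS18B and MRPS18C sit in the small subunit and MRPS18A in the large one. MRPS18A stood at 60.3, 59.9 and 66.4 CPM in shControl and at 61.0, 70.4 and 62.9 CPM in shNXN. MRPS18B stood at 72.2, 78.0 and 98.6 CPM in shControl and at 98.2, 134 and 110 CPM in shNXN. MRPS18C, the GC-poorest of the 3 at 38.9%, stood at 25.5, 17.4 and 23.6 CPM in shControl and at 17.0, 18.6 and 17.5 CPM in shNXN. In each of the 3 the groups overlapped, and none was called by edgeR or DESeq2. Reads shared between these paralogs cannot be traced in the tables.

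Among the largest rises of the large subunit were MRPL49, MRPL52 and MRPL58, which edgeR did not call with or without the block and DESeq2 did (DESeq2 adjusted p = 0.0172, 0.0193 and 0.0498). MRPL58, also known as ICT1, is a peptidyl-tRNA hydrolase built into the large subunit that rescues stalled ribosomes. It stood at 23.1, 21.7 and 28.2 CPM in shControl and at 28.8, 40.5 and 37.1 CPM in shNXN, with a log2 fold change of 0.54 (edgeR with the block, adjusted p = 0.0696). MRPL49 and MRPL52 had log2 fold changes of 0.54 and 0.51 (edgeR with the block, adjusted p = 0.0529 and 0.0587). In these 3 genes all shNXN libraries were above all shControl libraries.

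In the small subunit, the largest rises were those of MRPS5, MRPS11, MRPS18B, MRPS26 and MRPS34, with log2 fold changes between 0.37 and 0.47, none of them called by edgeR with or without the block. MRPS11, a counterpart of bacterial S11 on the platform of the small subunit, stood at 32.3, 34.6 and 33.1 CPM in shControl and at 44.5, 52.0 and 42.5 CPM in shNXN. Its adjusted p was 0.0514 from edgeR with the block and 0.0239 from DESeq2. MRPS33, which has no bacterial counterpart, stood at 18.0, 33.7 and 16.6 CPM in shControl and at 11.7, 9.81 and 15.9 CPM in shNXN, and it was not called (edgeR adjusted p = 0.13). Its groups did not overlap, by a narrow margin between day 11 of either group.

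MRPL41, MRPL36 and MRPS2, among the GC-richest members, were higher in shNXN than in shControl on each day but were not called by edgeR with or without the block. DESeq2 called MRPS2 (DESeq2 adjusted p = 0.0473). MRPL41, at 71.9% GC the GC-richest of all, stood at 44.3, 48.9 and 35.9 CPM in shControl and at 50.3, 56.9 and 45.8 CPM in shNXN. MRPL36, at 65.2%, stood at 31.6, 32.3 and 30.7 CPM and at 33.7, 44.8 and 36.9 CPM. MRPS2, at 61.4%, stood at 57.7, 58.3 and 56.2 CPM and at 68.0, 75.5 and 71.5 CPM. In MRPL36 and MRPS2 the groups did not overlap, while in MRPL41 they did.

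Members with and without a bacterial counterpart were compared by median only. The median log2 fold change was 0.24 for 30 large subunit members with a counterpart and 0.34 for 18 without, and 0.22 for 15 small subunit members with a counterpart and 0.13 for 10 without. With the block, 8 of these 30 large subunit members and 1 of these 15 small subunit members were called (background 23.3%). Of the 18 large subunit members without a counterpart, 1 was called higher and 2 lower, and of the 10 in the small subunit 0 were called. MRPS36, also called, was in neither list of the small subunit. Whether the calls differed by counterpart was not tested. The 12 members that are mutated in combined oxidative phosphorylation deficiency, an inherited failure of mitochondrial translation, had a median of 0.19. With the block 1 of these 12, MRPL12, was called (background 23.3%).

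Promoter letters were compared as a further property that the choice of members did not use. RefSeq promoter windows of 300 bases (250 before to 50 after the start, GRCh38.p14) were at hand for 67 of the 76 members and 27305 genes in all. The ETS-family core CCGGAAG, searched on both strands, occurred in 28 of 67 member promoters, 41.8%, beside 19.1% of the 10332 promoters of tested genes and 10.7% of all promoters. The share was 41.5% for MRPL and 42.3% for MRPS genes. The NRF1 core GCGCNNGCGC occurred in 11.9% of member promoters and 15.8% of those of tested genes, and the TATA box TATAAA in 2.99% and 5.66%. The windows had a median GC content of 60.3% in members and 65.3% in tested genes, and the motif shares were not adjusted for it. A match is a run of letters and not a site that was shown to be bound.

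Other genes of mitochondrial translation were taken from 5 lists. Of the 6 mitoribosomal proteins with other symbols, 0 were called by edgeR (background 3.39%) and 4 had an unadjusted p under 0.05 (background 32.9%), while DESeq2 called 1 (background 23.5%). PTCD3, a small subunit protein, was called lower with the block. It stood at 103, 115 and 127 CPM in shControl and at 51.4, 47.4 and 91.4 CPM in shNXN, a log2 fold change of -0.92 (edgeR with the block, adjusted p = 0.0285). Its FPKM of 54.8, 68.2 and 81.0 and of 55.8, 58.2 and 61.2 overlapped.

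Of 27 genes of ribosome assembly and rRNA modification, 1 was called by edgeR (background 3.39%). FASTKD2, an RNA-binding protein needed for maturation of the large subunit RNA, stood at 36.1, 47.9 and 40.7 CPM in shControl and at 7.91, 9.50 and 17.7 CPM in shNXN, a log2 fold change of -1.83 (SE 0.33, edgeR adjusted p = 0.0452). Its longest transcript has 36.5% GC, and after the GC offset the log2 fold change was -0.62 (edgeR adjusted p = 0.296). With the block, DDX28, an RNA helicase of large subunit assembly, was called higher, and FASTKD2, MTERF3 and METTL15 lower, 4 of 27 beside a background of 23.3%.

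Of 14 translation factors, 2 were called with the block, both higher (background 23.3%, with 6.28% higher). TUFM, the mitochondrial elongation factor Tu, stood at 266, 270 and 248 CPM in shControl and at 346, 404 and 316 CPM in shNXN, a log2 fold change of 0.44 (edgeR with the block, adjusted p = 0.0385). TACO1, an activator of cytochrome oxidase subunit translation, had a log2 fold change of 0.49 (edgeR with the block, adjusted p = 0.0372). The median of the 14 was -0.29 uncorrected and 0.14 after the GC offset.

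Of 20 mitochondrial aminoacyl-tRNA synthetases, CARS2 and TARS2 were called higher and WARS2 lower with the block (background 23.3%), and the median log2 fold change was 0.11. Of 15 genes of mitochondrial transcription, RNA stability and DNA maintenance, 4 were called with the block, all lower (background 23.3%, with 17.0% lower). LRPPRC, which stabilizes mitochondrial messenger RNA, stood at 323, 343 and 360 CPM in shControl and at 118, 96.3 and 265 CPM in shNXN. Its log2 fold change was -1.25 with the block (edgeR adjusted p = 0.0365) and -0.57 after the GC offset (edgeR adjusted p = 0.253). The other 3 were TEFM, MTERF1 and PNPT1. Over the 82 tested genes of these 5 lists, edgeR called 1 (background 3.39%) and, with the block, 14 (background 23.3%), and DESeq2 called 19 (background 23.5%). After the GC offset edgeR called 0 with or without the block (background 0.424% and 0.0392%), and 20 had an unadjusted p under 0.05 without it (background 16.6%). Apart from the last, these numbers were at or below what the shares over all features give. The RNAs encoded in the mitochondrial genome were not analysed here.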

How the data were processed

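RNA was sequenced from 6 Hep-3B libraries, prepared per the labels with a SMARTER mRNA kit. Per feature and library, the authors deposited estimated counts, which carry decimals. A further deposited table gives FPKM, fragments scaled by transcript length and by depth. The aligner, the counting program and the use of strand are not given in the sources used here. The genome builds named in the submitters' processing notes are of the mouse, although the identifiers are human Ensembl genes and assembled loci, so the authors' build is uncertain and coordinates are those of GENCODE 29 (GRCh38). Columns without a sample numbered 0. The members and gene lists were chosen with earlier results of these data known. A leukocyte marker is not reported here and was left out of its list.

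After rounding, the counts were fitted in edgeR 4.0.16 under R 4.3.3 with TMM factors, filterByExpr, the quasi-likelihood test and Benjamini-Hochberg adjustment over all tested features, with an adjusted p under 0.05 as a call. The standard error was the log2 fold change divided by the square root of F. The replicate numbers follow the days. Deviations from the group means correlated at 0.30, 0.31 and 0.45 between the libraries of a day (days 7, 9 and 11) and at -0.37 to 0.15 between days, so day was also used as a block. Centring on the group means forces negative values between days once those within days are positive, so the negative values are no separate evidence of pairing. GC content was that of the longest GENCODE 29 transcript. For the correction, the log2 deviations of a library were smoothed over GC content (natural spline, 5 degrees of freedom) and the smooth was used as an offset, which removes any group difference that follows GC content, whatever its origin. By-day values are differences of log2 CPM with a prior count of 2.

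Alternatives were DESeq2 1.42.0, RLE factors, library size only, no filter beyond 1 count, at least 10 counts in every library, the block, 3 definitions of GC content, transcript length, limma 3.58.1 on log2(FPKM + 1) and log2(FPKM + 0.1), each library left out, and both day 11 libraries left out. Scripts were tested on simulated data. Replicates of a group differed by more than sampling noise (chi-square per feature between 20.1 and 77.8), and counts limit precision to these depths.

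Named members were those called in any of the 4 edgeR fits, per subunit the 5 largest rises and falls (mean of at least 1 CPM), the 3 highest and 3 lowest FPKM, the 3 GC-richest and GC-poorest, the 5 smallest p with block and GC offset, the MRPS18 paralogs and the stalk proteins, and for related lists the genes called. Of the 76 members, 35 overlap another protein-coding gene, 11 of them on the same strand, and 27 had a count that was not whole.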

Additional observations from a re-analysis of the deposited data

Results flagged for a closer look

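MRPL30 changed sign between days. Its log2 difference between shNXN and shControl from day 7 to day 11 was 1.51, 0.27 and -2.60, with 1 library per group and day. The difference between days was not tested. The counts behind it are low, between 3.48 and 86.62 per library, and none of them is a whole number. Groups of 3 libraries are too small for the test of single outlying samples, which was therefore not run.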

How the results depend on the processing

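Counts of called genes were the least stable values. Members called numbered 0 in edgeR, 1 with RLE factors, 1 with library size only, 13 with the replicate block, 1 with the block and the GC offset, 20 in DESeq2, 23 without both day 11 libraries, and 0 to 19 with single libraries left out. Called features among all tested numbered 929 with library size only, 826 with RLE factors, 3272 with the replicate block, 818 without the filter, 3311 in DESeq2, 287 and 66 in limma (pseudocount 1 and 0.1), 4519 without both day 11 libraries and 0 to 3706 with single libraries left out. With the GC offset they numbered 5, or 5 with length, 4 with mean GC and 5 with coding GC, and with the block added 54, or 40 with mean GC and 177 with coding GC. Of the related genes, 1 was called, 14 with the block, 19 in DESeq2 and 0 with the GC offset, without and with the block. The log2 fold change of NXN stayed between -1.90 and -1.67 with single libraries left out, and its call was lost without day 7 or 11 of shControl and without day 7 or 9 of shNXN.

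The MRPL median was 0.093 with the GC offset, 0.095 with the block added, 0.076 with length, 0.11 with mean GC (0.13 with the block), 0.13 with coding GC (0.14 with the block), 0.36 and 0.37 in limma (pseudocount 1 and 0.1), and 0.19 to 0.35 with single libraries left out. The MRPS median was 0.28 with the GC offset, 0.28 with the block added, 0.27 with length, and 0.06 to 0.22 with single libraries left out. The subunit difference was -0.18 with the GC offset, -0.19 with the block added, -0.19 with length, -0.073 with mean GC (-0.043 with the block), 0.0096 with coding GC (0.021 with the block), 0.17 in limma (pseudocount 0.1), 0.18 without both day 11 libraries, and 0.054 (without shNXN day 9) to 0.28 (without shControl day 9) with single libraries left out. On days 7, 9 and 11 the MRPL medians were 0.29, 0.57 and 0.16 on the log2(FPKM + 1) scale and 0.033, 0.23 and 0.094 after the GC offset. The MRPS medians were 0.28 on day 9 on the FPKM scale, and 0.26 and 0.52 on days 7 and 9 after the GC offset. Against features of like GC content, the MRPS median was 0.15 by mean GC and 0.11 by coding GC.

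Directions of members turned mainly under GC offsets. In the order longest transcript, with block, with length, mean GC and mean GC with block, log2 fold changes were 0.33, 0.34, 0.34, 0.087 and 0.073 for MRPL13, 0.73, 0.74, 0.73, 0.53 and 0.54 for MRPS14, 1.25, 1.22, 1.25, 1.13 and 1.08 for MRPS30, 0.80, 0.76, 0.80, 1.07 and 1.01 for MRPS18C, -0.017, -0.020, -0.068, -0.015 and -0.018 for MRPS26, and -0.022, -0.028, -0.087, -0.011 and -0.011 for MRPS34. With the first 3 of these, MRPL19 had 0.35, 0.35 and 0.35 and MRPS36 had 0.43, 0.44 and 0.39, while mean GC left them negative, at -0.18 and -0.40 (-0.16 and -0.42 with the block), and coding GC left MRPL19 at -0.41 (-0.38 with the block). With coding GC, without and with the block, they were 0.097 and 0.11 for MRPL1, 0.18 and 0.18 for MRPS10, 0.72 and 0.68 for MRPS18C, -0.037 and -0.039 for MRPS26, -0.0083 and -0.0094 for MRPS34, 0.080 and 0.079 for MRPS35, and 0.19 and 0.14 for MRPS36. With mean GC, MRPL1 had 0.0094 (0.030 with the block), MRPS10 had 0.049 (0.052 with the block) and MRPS35 had 0.0010, and with length MRPL12 had -0.053. In limma with pseudocounts 1 and 0.1, MRPL19 had 0.49 and 0.50 and MRPS14 had 0.16 and 0.16. The causes were not tested, and 1 library per group and day limits every by-day value.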
